A study of Homo sapiens with 4 samples.

Results

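Expression of 43 genes of DNA replication and origin licensing was examined in U87 cells, an established human glioblastoma line. The genes were taken by name from a list of cyclin E, licensing, helicase, clamp, polymerase, nucleotide supply and chromatin assembly genes, and all 43 were found among the 22017 genes with values. Cells received 50 nM of an oligonucleotide by lipofection and RNA was taken after 48 h. The tRF-3009a mimic, which stands for a small RNA cut from a tRNA's 3' portion, went into 2 of the libraries. The other 2 are controls that received ssGL2, one strand of a luciferase siRNA. No untransfected cells were analysed here, so all 4 libraries share the lipid and an oligonucleotide. Each group has a library numbered 1 and a library numbered 2, and what the number stands for is not stated. Separate cultures are not stated either, so p-values measure only the spread between these libraries. The libraries are called mimic 1, mimic 2, control 1 and control 2 here.

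DNA replication starts at origins that are prepared, or licensed, before S phase. The origin recognition complex, CDC6 and CDT1 load the ring-shaped MCM helicase onto DNA, geminin blocks further loading by binding CDT1, and CDC45 and the GINS complex turn the loaded ring into the active helicase. Primase and the replicative polymerases then copy the strands with the sliding clamp PCNA, and ribonucleotide reductase, thymidylate synthase and thymidine kinase supply the nucleotides. Many of these genes are transcribed by E2F factors as cells pass from G1 into S phase, so their RNA is low in cells that have left the cycle.

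The deposited values are reads per transcript scaled to each library, and recovered whole reads came to between 28866335 and 33831232 per library. Mimic 2 differed from control 2, and mimic 1 from control 1, by a chi-square of 6.53 and 15.2 per degree of freedom over genes, and pairs with unlike numbers differed by 204 to 232, so every pair differed by more than sampling noise. The mesenchymal glioma markers VIM and CD44 were high in every library, while the glial markers GFAP and SOX2 were low, at 0.594 to 1.95 and 0.231 to 0.462 TPM (value per kilobase of transcript, scaled to the same total in each library), and PTPRC, a marker of blood cells, was at most 0.232 TPM. The whole list of glial and mesenchymal markers summed to 5258 TPM in mimic 2 and 5463 TPM in control 2, against 10035 TPM in mimic 1 and 10578 TPM in control 1. Most of that sum was VIM, 3 genes of the list were lower in number 2 and 1 was higher (limma), which was TNC, at 767 TPM in mimic 2 and 812 TPM in control 2, against 430 TPM in mimic 1 and 456 TPM in control 1. The proliferation markers MKI67, TOP2A, BIRC5, CCNB1 and AURKA moved with the number: all 5 were lower in number 2 (limma), with a summed level of 209 TPM in mimic 2 and 214 TPM in control 2, against 883 TPM in mimic 1 and 771 TPM in control 1. Summed neuronal markers were at 19.0 TPM in mimic 2 and 18.2 in control 2, against 28.7 in mimic 1 and 29.5 in control 1, but its genes went opposite ways, with SNAP25 lower in number 2 (log2 difference -3.13) and SYT1 higher (1.47). Endothelial markers, 2 of them called lower, were at 0.712 TPM in mimic 2 and 0.777 TPM in control 2, against 3.14 TPM in mimic 1 and 2.35 TPM in control 1. Epithelial markers summed to 12.4 to 14.3 TPM, with EPCAM lower in number 2 (log2 difference -1.58, limma adjusted p = 0.00707) and no other call. Oligodendrocyte markers had no call, and their sum was 1.07 TPM in mimic 2 and 0.505 TPM in control 2, against 0.277 TPM in mimic 1 and 0.156 TPM in control 1. Immune markers, nearly all of it CD68, were at 256 TPM in mimic 2 and 294 TPM in control 2, against 283 TPM in mimic 1 and 368 TPM in control 1. The part of these markers in the results was not tested. In bulk RNA, fewer cycling cells and less RNA of a gene per cell cannot be told apart.

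Setting mimic against control libraries addresses whether the fragment changed replication gene expression. None of the 43 genes passed the test (limma, Benjamini-Hochberg adjustment over 16523 genes), and the background share of called genes was 0.0%. Over all genes 26 had an unadjusted p under 0.05 with limma, 35 with edgeR and 23 with DESeq2, and no member was among those of limma. In no member did the mimic libraries lie wholly above or below the controls. Of all genes tested, 12.4% had groups that did not overlap, 6.21% with the mimic lower and 6.19% with it higher. Groups can lie apart only where the mimic differs from the control by more than the numbers differ. The members had a median log2 difference of -1.84 between numbers, so their overlap does not show a smaller response than that of other genes. The median log2 fold change of the members was -0.09, against -0.01 over all genes, with members from -0.37 (TK1) to 0.11 (PRIM1).

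The difference between numbers entered the error of this test. Its standard errors ran from 0.22 for UNG to 1.59 for ORC1 on the log2 scale. In simulated data with the same difference between numbers this test found none of the changed genes, large changes included. Neither small nor large changes were thus detectable with this test, and its absence of calls says nothing of their absence in the cells. A fit with the number as a block found 99 of 100 2-fold and 100 of 100 4-fold changes in simulated data. Changes under 2-fold were not simulated, and every simulated gene had the same spread. Within a number the members differed by -0.60 to 0.25 on the log2 scale, less than 2-fold, so what this fit detects at that size was not tested. On the real libraries that fit called 117 of 16523 genes, with 0 members among them (limma). Whether libraries sharing a number are pairs is not stated.

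The smallest p-value of a member was that of TK1, which encodes the thymidine kinase that salvages thymidine in S phase. Its normalized value was 2858 in mimic 1 and 936 in mimic 2, while control 1 had 3923 and control 2 had 1136. TK1 was thus lower in the mimic within each number, but mimic 1 was far above control 2, and its log2 fold change was -0.37 ± 0.84 (SE over 2 libraries a group) and did not pass (limma adjusted p = 1.00). POLD1, the catalytic subunit of DNA polymerase delta, had 1489 in mimic 1 and 431 in mimic 2, while control 1 had 1803 and control 2 had 517, a log2 fold change of -0.27 ± 0.89. CDT1 had 956 and 280 in mimic 1 and mimic 2, against 1325 and 290 in control 1 and control 2. Its lower value in the mimic lay mostly within number 1, with a log2 difference of -0.47 there and -0.05 within number 2.

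MCM2, a helicase subunit, had 4146 in mimic 1 and 1506 in mimic 2, while control 1 had 4601 and control 2 had 1817, a log2 fold change of -0.21 ± 0.70. The GINS subunit gene GINS3 had 902 and 613 in mimic 1 and mimic 2, against 889 and 714 in control 1 and control 2. CCNE1, which encodes cyclin E1, the partner of CDK2 at the G1/S transition, had 309 and 247 in mimic 1 and mimic 2, against 293 and 229 in control 1 and control 2, a log2 fold change of 0.09 ± 0.30. CCNE1 was slightly higher in the mimic within each number, and its groups overlapped. With 1 library left out, the fold changes of these 6 genes took both signs, since the groups then held unequal numbers.

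Within a number, the members differed little between mimic and control. In number 2, 35 of 43 members were lower in mimic 2 than in control 2, with a median log2 difference of -0.17, while 54.7% of all genes tested were lower there. In number 1, 25 of 43 were lower in mimic 1 than in control 1, with a median of -0.03, against 50.6% of all genes. In number 2 all 6 MCM helicase genes, all 6 helicase activation genes, all 7 polymerase and primase genes and all 4 nucleotide supply genes were lower in the mimic. The same held for 4 of 5 clamp genes, 3 of 5 licensing genes, 3 of 4 chromatin genes, 1 of 3 flap processing genes, 0 of 2 cyclin E genes and CLSPN. In number 1 only 3 of 7 polymerase and primase genes and 1 of 5 clamp genes were lower in the mimic, and 3 of 4 nucleotide supply genes were. POLE2, the second subunit of polymerase epsilon, was the lowest member within number 2 at -0.60, and LIG1 the highest at 0.17. In number 1 the lowest was CDT1 at -0.47 and the highest PRIM1, the catalytic primase subunit, at 0.25.

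Of the members, 21 were lower in the mimic within both numbers and 4 were higher within both, against 27.7% and 22.3% of all genes. The 4 were CCNE1, CCNE2, CDC6 and RFC5. These are values of 1 library against 1 in each number, with no test, and members measured in the same libraries are not independent. The difference between the numbers in these values was not tested, since 4 libraries leave no error for it.

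**Figure D1:**
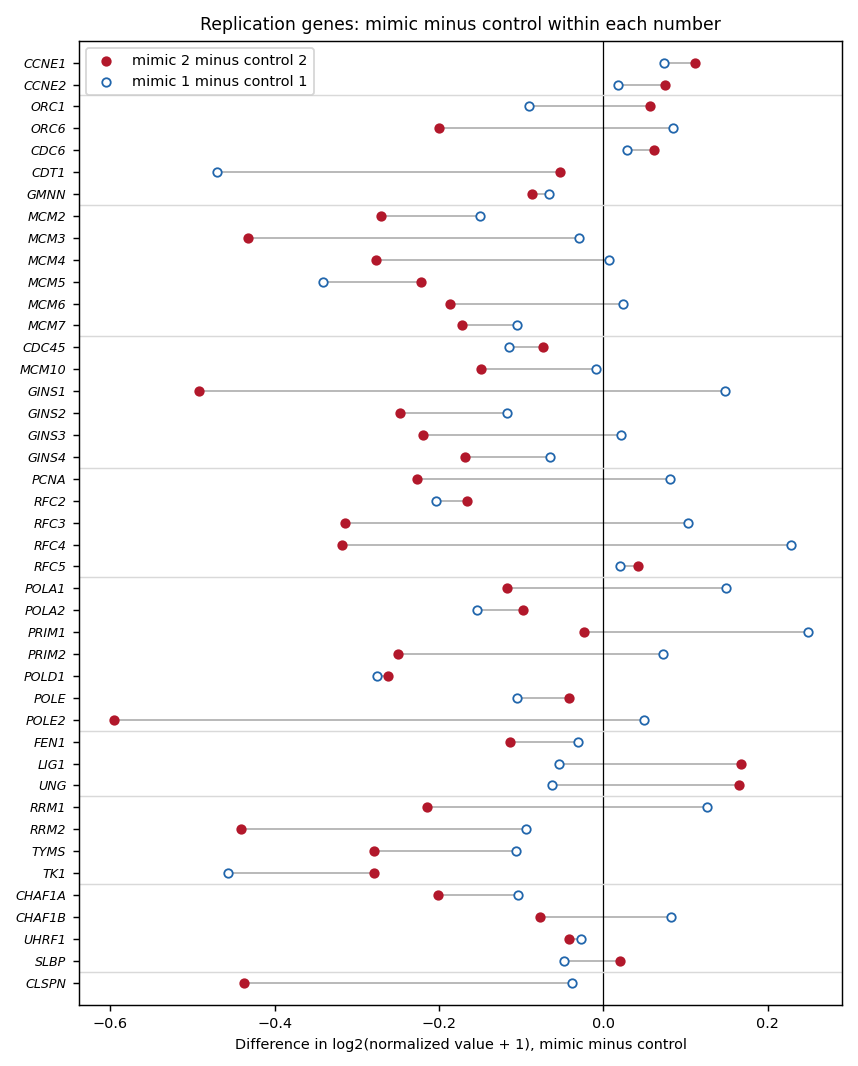
Mimic minus control for each of the 43 genes, on the scale of log2(normalized value + 1), in the libraries numbered 2 (filled) and 1 (open), with grey lines between role groups. Most filled points lie below 0 (35 of 43), while the open points spread on both sides of it (25 below, 18 above), and none of the genes passed the test.

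The libraries numbered 2 were then compared with those numbered 1, because this difference was the main one among the members. It sets 1 mimic and 1 control library against 1 mimic and 1 control library, and it describes the libraries and not a labelled condition. Of the 43 members, 41 were lower in number 2 and 0 were higher (limma adjusted p under 0.05), where 50.2% of all genes tested were called, 24.2% lower and 26.0% higher. The median log2 difference of the members was -1.84, and that of all genes was 0.01. A called fall of more than 2-fold was found in 37 of 43 members, against 8.51% of all genes, and one of more than 4-fold in 17, against 1.95%. The 2 members not called were CCNE1 and UNG.

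The fall was seen with either oligonucleotide. The median log2 difference was -1.89 for mimic 2 minus mimic 1 and -1.80 for control 2 minus control 1. Over all genes tested the same medians were 0.0048 and 0.0081. In all 43 members the difference was negative in both, and the share of all genes that were negative in both is not given here.

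**Figure D2:**
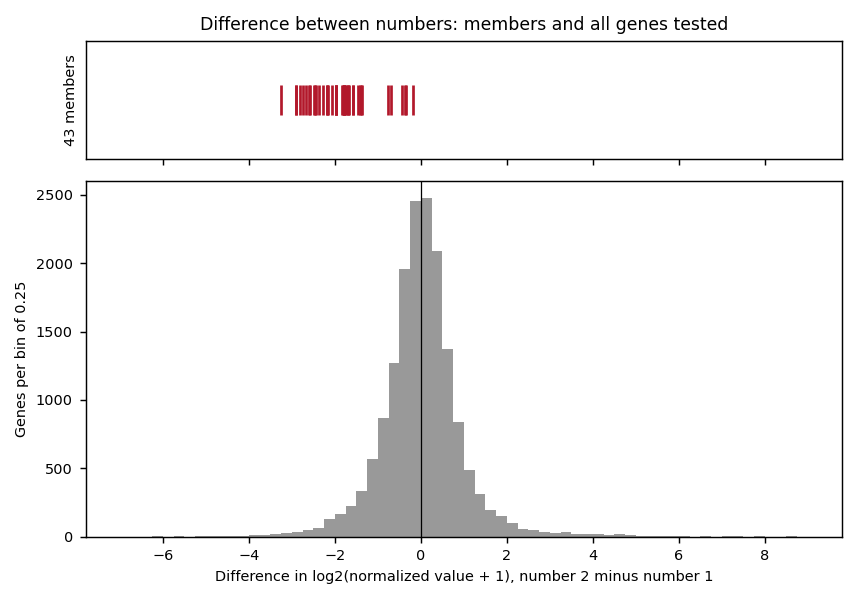
Number 2 minus number 1 on the scale of log2(normalized value + 1), with the 43 members as ticks (top) and the 16523 genes tested as a histogram (bottom). All members lie below 0, from -3.25 to -0.18, while the histogram centres on a median of 0.01.

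**Figure D3:**
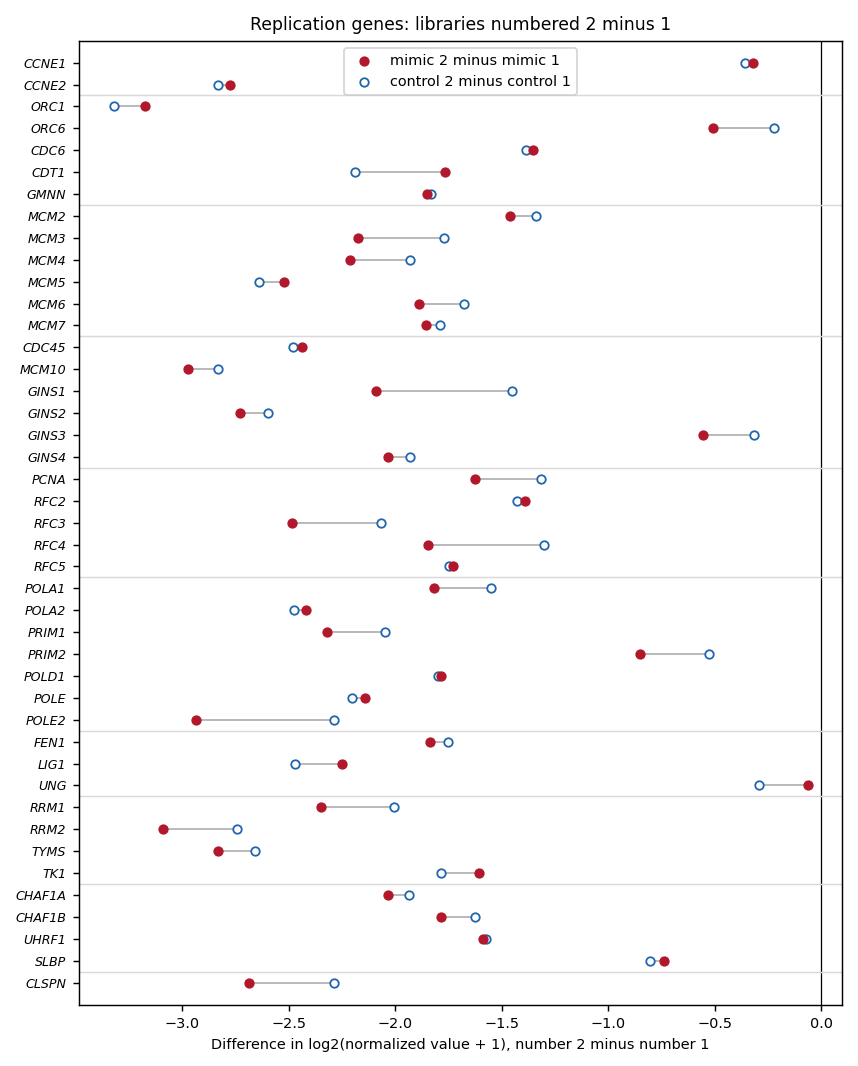
Number 2 minus number 1 for each of the 43 genes, taken between the mimic libraries (filled) and between the control libraries (open), on the scale of log2(normalized value + 1). Both points lie below 0 for every gene, and CCNE1, ORC6, GINS3, PRIM2, UNG and SLBP lie closest to it.

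The 2 cyclin E genes moved unequally. CCNE2, which encodes cyclin E2, had a normalized value of 110 in mimic 2 and 104 in control 2, against 757 in mimic 1 and 748 in control 1. It was 6.98-fold lower in number 2, with a log2 difference of -2.80 ± 0.13 (SE, n = 2 per number, limma adjusted p = 6.46e-07). CCNE1 had 247 in mimic 2 and 229 in control 2, against 309 in mimic 1 and 293 in control 1. The CCNE1 libraries of the numbers did not overlap, but the log2 difference of -0.34 ± 0.14 did not pass (limma adjusted p = 0.0697).

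All 5 origin recognition and licensing genes fell in number 2. ORC1, the ATPase subunit of the origin recognition complex whose level follows the cell cycle, had 79.3 in mimic 2 and 76.2 in control 2, against 724 in mimic 1 and 771 in control 1. Its log2 difference of -3.25 ± 0.14 (limma adjusted p = 4.33e-07) was the largest among the 43 genes. ORC6, the smallest subunit of the same complex, had 850 in mimic 2 and 976 in control 2, against 1209 in mimic 1 and 1140 in control 1. Its fall of 1.29-fold (log2 difference -0.37 ± 0.10, limma adjusted p = 0.0160) was no longer called without mimic 2 (adjusted p = 0.173) or without mimic 1 (0.0539).

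The loading factor genes lay between these. CDC6, the ATPase that recruits the helicase with CDT1, was 2.59-fold lower (log2 difference -1.37). CDT1 and GMNN, which encodes its inhibitor geminin, fell by 1.98 and 1.84 on the log2 scale.

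Each of the 6 genes of the MCM2 to MCM7 hexamer fell in number 2, by between 1.40 and 2.58 on the log2 scale. MCM5 fell the most, with 693 in mimic 2 and 808 in control 2, against 3982 in mimic 1 and 5046 in control 1 (log2 difference -2.58 ± 0.13). MCM2 fell the least, with 1506 in mimic 2 and 1817 in control 2, against 4146 in mimic 1 and 4601 in control 1 (log2 difference -1.40 ± 0.11). The other 4, MCM3, MCM4, MCM6 and MCM7, had log2 differences of -1.97, -2.07, -1.78 and -1.82. On the TPM scale MCM5 and MCM2 changed order. MCM5 was at 19.8 TPM in mimic 2 and 22.5 TPM in control 2, below MCM2 at 26.0 TPM in mimic 2 and 31.3 TPM in control 2. In number 1 MCM5 was at 106 TPM in mimic 1 and 139 TPM in control 1, above MCM2 at 76.5 and 80.1 TPM.

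Genes that activate the helicase included some of the strongest falls. MCM10, an initiation factor that binds the active helicase, had 107 in mimic 2 and 119 in control 2, against 847 in mimic 1 and 852 in control 1 (log2 difference -2.90 ± 0.13). CDC45 fell by 2.46 on the log2 scale. The 4 subunit genes of the GINS complex did not move alike. GINS2 fell 6.33-fold, GINS4 fell 3.95-fold and GINS1 fell 3.42-fold, but GINS3 fell only 1.35-fold. GINS3 had 613 in mimic 2 and 714 in control 2, against 902 in mimic 1 and 889 in control 1 (log2 difference -0.44 ± 0.11, limma adjusted p = 0.00924), and its call was lost without mimic 2 (adjusted p = 0.116). GINS3 was at 18.6 TPM in mimic 2 and 20.1 TPM in control 2, where GINS2 was at 3.80 and 4.17 TPM. In number 1 the levels were close, at 30.7 TPM in mimic 1 and 27.7 TPM in control 1 for GINS3 and 25.2 and 26.4 TPM for GINS2.

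**Figure D4:**
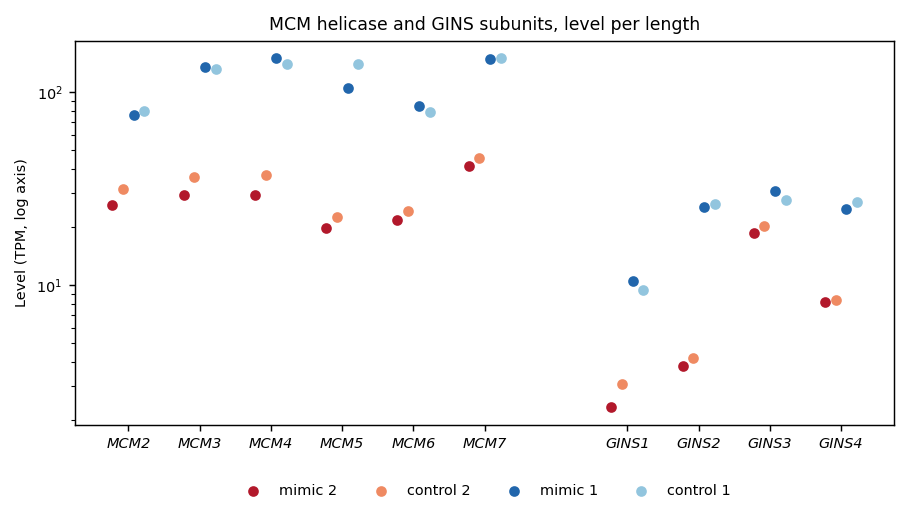
Level in TPM, on a log axis, of the subunit genes of the MCM helicase and the GINS complex, in the order mimic 2, control 2, mimic 1, control 1. MCM5 lies above MCM2 in number 1 and below it in number 2, and GINS3 has the smallest gap between numbers.

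The clamp PCNA and the 4 clamp loader genes of the list fell in number 2. PCNA, which holds polymerases on DNA, fell by 1.47 on the log2 scale. RFC3 had 336 in mimic 2 and 418 in control 2, against 1884 in mimic 1 and 1754 in control 1 (log2 difference -2.28 ± 0.12). RFC2 had 541 in mimic 2 and 606 in control 2, against 1418 in mimic 1 and 1633 in control 1 (log2 difference -1.41 ± 0.11). RFC4 and RFC5 were at -1.57 and -1.74.

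All 7 polymerase and primase genes fell. POLE2 had 52.4 in mimic 2 and 79.7 in control 2, against 407 in mimic 1 and 393 in control 1 (log2 difference -2.61 ± 0.22), and POLE, the catalytic subunit of the same polymerase, was at -2.17. The polymerase alpha genes POLA1 and POLA2 were at -1.68 and -2.45, and POLD1 was at -1.79. The partners in primase differed, with PRIM1 at -2.18 and PRIM2, the large subunit, at -0.69. PRIM2 had 428 in mimic 2 and 509 in control 2, against 773 in mimic 1 and 735 in control 1 (log2 difference -0.69 ± 0.12, limma adjusted p = 0.00131).

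The 4 nucleotide supply genes all fell. RRM2, the small subunit of ribonucleotide reductase made in S phase, had 733 in mimic 2 and 995 in control 2, against 6244 in mimic 1 and 6665 in control 1. It was 7.55-fold lower in number 2 (log2 difference -2.92 ± 0.13, limma adjusted p = 5.25e-07). RRM1, the large subunit, fell 4.53-fold, TYMS, which makes thymidylate, fell 6.70-fold, and TK1 fell 3.24-fold. TK1 had 936 in mimic 2 and 1136 in control 2, against 2858 in mimic 1 and 3923 in control 1. In number 2 RRM2 was below RRM1, at 15.5 against 36.0 TPM in mimic 2 and at 22.4 against 35.6 TPM in control 2. In number 1 it was above, at 193 against 175 TPM in mimic 1 and at 200.2 against 152 TPM in control 1. Short transcripts weigh more in values per kilobase, and RRM2-207, a retained-intron transcript, is 573 bases long. It had 625 in mimic 1 and 442 in control 1, against 0 in mimic 2 and 29.2 in control 2. The coding transcript RRM2-201 is 3271 bases long. RRM1-201, the leading coding transcript of RRM1, is 3076 bases long. It had 7449 in mimic 1 and 6972 in control 1, where RRM2-201 had 4808 and 5148. In number 2 RRM1-201 had 1465 in mimic 2 and 1717 in control 2, where RRM2-201 had 542 and 828. RRM2-201 was thus longer and lower in every library, and the change of order was not seen between these leading coding transcripts.

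Among the genes of chromatin assembly and histone supply, CHAF1A, the large subunit of the histone chaperone CAF-1, had 431 in mimic 2 and 495 in control 2, against 1766 in mimic 1 and 1898 in control 1 (log2 difference -1.98 ± 0.11). Its partner CHAF1B was at -1.70, and UHRF1, which brings DNA methylation to new strands, was at -1.58. SLBP, which binds the stem-loop of histone mRNAs, fell the least of these, with 1619 in mimic 2 and 1596 in control 2, against 2699 in mimic 1 and 2789 in control 1 (log2 difference -0.77 ± 0.08). CLSPN, which encodes the fork checkpoint mediator claspin, had 226 in mimic 2 and 306 in control 2, against 1458 in mimic 1 and 1497 in control 1 (log2 difference -2.49 ± 0.15).

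Of the genes that finish new strands, LIG1, the ligase that seals Okazaki fragments, had 174 in mimic 2 and 155 in control 2, against 831 in mimic 1 and 862 in control 1 (log2 difference -2.36 ± 0.13). FEN1, the flap nuclease, was at -1.79. UNG, which encodes the glycosylase that removes uracil from DNA, had 1312 in mimic 2 and 1170 in control 2, against 1372 in mimic 1 and 1432 in control 1. Its log2 difference of -0.18 ± 0.10 did not pass (limma adjusted p = 0.152), but the sum over its transcripts covered opposite changes.

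UNG lies on chromosome 12 from 109097574 to 109110992 (GRCh38, plus strand) and has separate first exons. UNG-201 starts upstream and encodes 313 amino acids, and UNG-202 starts at 109098118 and encodes 304. They are known as the nuclear form UNG2, which works at replication forks, and the mitochondrial form UNG1. UNG-201 had a normalized value of 181 in mimic 2 and 121 in control 2, against 696 in mimic 1 and 791 in control 1. UNG-202 had 1116 in mimic 2 and 1009 in control 2, against 610 in mimic 1 and 625 in control 1. UNG-201 thus fell (log2 difference -2.32 ± 0.25, limma adjusted p = 0.0208 over 58486 transcripts) while UNG-202 rose (0.78 ± 0.12, adjusted p = 0.0358). UNG-201 made up 13.8% of the gene's value in mimic 2 and 10.3% in control 2, against 50.8% in mimic 1 and 55.2% in control 1.

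Both UNG start regions are shown because the transcripts moved in opposite directions. The 250 bases before each RefSeq start are given 5′ to 3′ (GRCh38.p14, plus strand), at chr12:109097347-109097596 before the start of the nuclear form and chr12:109097922-109098171 before that of the mitochondrial form. Capitals mark E2F letters (TTTCCCG as one form, TTTGGCG as another, TTTCGCG as the third, TTTGCCG as the fourth) and the CCAAT box letters, on either strand.
UNG nuclear form: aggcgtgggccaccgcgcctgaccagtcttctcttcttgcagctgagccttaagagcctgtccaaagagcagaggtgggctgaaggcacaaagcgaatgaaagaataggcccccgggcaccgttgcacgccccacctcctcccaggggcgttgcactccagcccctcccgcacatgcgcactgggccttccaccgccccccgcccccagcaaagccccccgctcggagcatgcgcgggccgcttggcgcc
UNG mitochondrial form: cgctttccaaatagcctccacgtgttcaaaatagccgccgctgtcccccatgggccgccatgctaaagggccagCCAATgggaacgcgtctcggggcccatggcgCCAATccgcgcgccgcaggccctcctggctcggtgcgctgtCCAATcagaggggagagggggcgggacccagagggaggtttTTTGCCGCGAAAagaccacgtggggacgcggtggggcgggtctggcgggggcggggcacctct
The first sequence held none of these letters. The second, before the transcript that rose, held 3 CCAAT matches and a pair of E2F matches that overlap on opposite strands. A match is a description of the letters and not a binding site.

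CDC6 and GINS2 are shown as members that fell and whose start regions hold both kinds of letters, at chr17:40287629-40287878 (plus strand) and chr16:85688955-85689204 (minus strand), printed along the gene's own strand with the same capitals. They were chosen after their values were seen.
CDC6: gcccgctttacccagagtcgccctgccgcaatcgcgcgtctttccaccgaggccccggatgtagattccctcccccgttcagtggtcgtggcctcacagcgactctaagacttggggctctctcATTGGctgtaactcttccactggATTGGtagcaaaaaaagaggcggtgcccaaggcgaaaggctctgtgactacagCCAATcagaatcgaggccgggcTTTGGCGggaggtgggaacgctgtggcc
GINS2: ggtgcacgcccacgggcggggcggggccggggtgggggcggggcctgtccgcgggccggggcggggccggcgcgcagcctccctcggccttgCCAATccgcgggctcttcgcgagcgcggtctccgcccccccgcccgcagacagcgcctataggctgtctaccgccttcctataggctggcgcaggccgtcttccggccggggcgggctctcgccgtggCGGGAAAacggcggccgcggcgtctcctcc
E2F letters were found in windows of 24 of the 39 members with an entry in the RefSeq promoter table (61.5%), against 10.4% of the 27305 genes in it, over windows from 250 bases before to 50 after a start. The CCAAT letters were found in 59.0% of members and 39.7% of genes. The CHR letters, TTTGAA in one form and TTCGAA in the other, were found in 7.69% and 19.5%. CCNE2, GINS4, MCM4 and MCM5 had no entry. In number 2 the 24 members with E2F letters had a median log2 difference of -1.97 (range -2.90 to -0.18). The 15 without had -1.70 (range -3.25 to -0.34), and the ranges overlap nearly throughout. The -0.18 is the gene sum of UNG, whose E2F letters lie only in the window of UNG-202, the transcript that rose.

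Transcripts of other members were read in the same way. The 43 genes had 252 transcript rows, from 2 to 19 each, and in 25 genes 1 row held over 80% of the value. Of the 167 rows tested, 55 were lower in number 2 and 3 were higher, where 3.89% and 4.42% of all 58486 rows were. Besides UNG-202 the higher rows were MCM7-209, a retained-intron transcript, and POLD1-210, both listed at 0 in mimic 1 and control 1. In number 2 MCM7-209 had 79.3 in mimic 2 and 71.7 in control 2, at most 4.50% of the gene's value. POLD1-210, a coding transcript, had 47.8 in mimic 2 and 71.7 in control 2, 11.1% and 13.9% of its gene's value. How reads are split among transcripts is an estimate, and a row at 0 can be a failed one.

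For CCNE1, ORC6 and GINS3, whose sums differed little between numbers, the leading transcript did not pass the test. CCNE1-201 had 181 in mimic 2 and 158 in control 2, against 160 in mimic 1 and 144 in control 1. CCNE1-203 had 52.5 in mimic 2 and 59.4 in control 2, against 136 in mimic 1 and 131 in control 1, a log2 difference of -1.24 ± 0.24 that did not pass (limma adjusted p = 0.0551). ORC6-201 had 556 in mimic 2 and 668 in control 2, against 549 in mimic 1 and 637 in control 1. The retained-intron row ORC6-207 had 221 in mimic 2 and 182 in control 2, against 398 in mimic 1 and 310 in control 1, and did not pass either (limma adjusted p = 0.108). GINS3-201 had 428 in mimic 2 and 532 in control 2, against 600 in mimic 1 and 453 in control 1. Its log2 difference was -0.13 (limma adjusted p = 0.739).

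**Figure D5:**
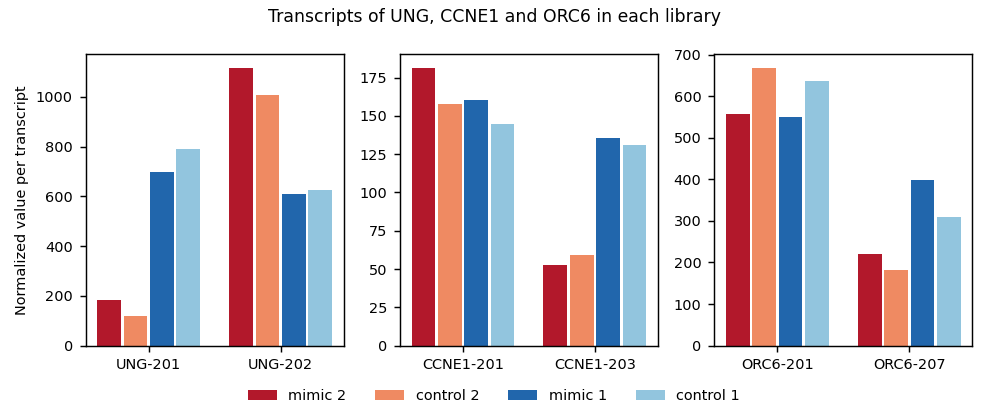
Normalized value per transcript in each library for 2 transcripts each of UNG, CCNE1 and ORC6. UNG-201 is lower and UNG-202 higher in mimic 2 and control 2 than in mimic 1 and control 1, while CCNE1-201 and ORC6-201 differ little between numbers.

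Further replication genes outside the list, 58 in all, were read for comparison. In number 2, 44 of them were lower and 6 were higher (limma), against 24.2% and 26.0% of all genes, with a median log2 difference of -0.94. The largest falls were those of DSCC1, which helps load the clamp for sister cohesion (-2.69), DTL, which directs CDT1 to degradation (-2.23), topoisomerase gene TOP2A (-2.22) and ATAD5, which unloads PCNA (-2.15). ORC2, a core subunit of the origin recognition complex, had 1136 in mimic 2 and 1106 in control 2, against 1104 in mimic 1 and 1044 in control 1, and the repair polymerase gene POLB likewise had a difference near 0 (0.03). RRM2B, the ribonucleotide reductase subunit used outside S phase, was among the 6 that rose, with 4329 in mimic 2 and 4554 in control 2, against 2856 in mimic 1 and 2434 in control 1 (log2 difference 0.75 ± 0.09, limma adjusted p = 0.000186). RRM2B was chosen after its value was seen. In the mimic against the control, 0 of the 58 genes passed, with a median log2 fold change of -0.02.

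Exons of 15 members overlap those of another gene with values, 12 of them on the opposite strand, such as TYMS with ENOSF1 and MCM2 with TPRA1. The library kit keeps the strand, but whether counting used it is not given in the sources used here, so values of these genes may include reads of the neighbour. In 5 members an overlap lies on the same strand, where the strand cannot separate reads, such as PRIM1 with NACA. NACA had 14720 in mimic 2 and 13972 in control 2, against 13126 in mimic 1 and 13541 in control 1. ENOSF1 had 1770 in mimic 2 and 1612 in control 2, against 1607 in mimic 1 and 1595 in control 1. WSB2, opposite RFC5, was lower along with it, with 3843 in mimic 2 and 4136 in control 2, against 9177 in mimic 1 and 9793 in control 1, and its part in the fall of RFC5 was not tested. TYMSOS, also opposite TYMS, had 35.2 in mimic 2 and 29.1 in control 2, against 77.5 in mimic 1 and 57.3 in control 1.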

How the data were processed

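Paired-end reads came from poly(A)-selected U87 RNA, per the labels' protocols. Tools in the submitters' processing notes are kallisto and DESeq2, with build hg38, and their versions are not given in the sources used here. The deposited table holds a signal per Ensembl transcript, reads estimated by the authors and divided by a scale factor of each library. In low values, 99.2% to 99.7% were whole multiples of 1 step (tolerance 0.1), and dividing by that step recovered reads, on which edgeR and DESeq2 were run. Of 100809 transcripts 90627 (89.9%) matched GENCODE v29 (GRCh38) and were summed over 22017 genes. Unmatched rows held 3.26% to 3.57% of values. Columns of no sample numbered 0.

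Genes with a mean of at least 10 were tested with limma (trend) on log2(value + 1), two-sided, Benjamini-Hochberg at 0.05. Fold changes are on that scale, which understates low genes. The number comparison used the same fit. Levels between genes are TPM-like values, the deposited value per kilobase of transcript scaled to an equal total in each library. The members, lists and tests were chosen with earlier results of these data known. Values in each library are given for the members that moved most and least in each role group and the 6 with the smallest p in the mimic comparison. No member met the further part of that rule, groups that do not overlap. On simulated data the number comparison and the mimic comparison with a replicate block found nearly all genes changed 2-fold or 4-fold. The mimic comparison without the block, as reported, found none. The cell line is shared by all samples, and sequences came from RefSeq. Testing transcripts singly was chosen after seeing the data. Software was R 4.3.3, limma 3.58.1, edgeR 4.0.16, DESeq2 1.42.0, Python 3.11.15, numpy 2.4.6, pandas 2.3.3 and matplotlib 3.10.9.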

Additional observations from a re-analysis of the deposited data

How the results depend on the processing

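The count of 0 members called in the mimic comparison without a block says nothing about stability, since that fit found no changed gene in simulated data either. It was 0 under other pseudocounts (0.5 and 5), filters, scalings, limma voom, edgeR, DESeq2, single transcripts, other transcript sums and each library left out. Whether libraries sharing a number are pairs is not stated, though they deviated together (r = 0.745 across genes). With a replicate block limma called 117 of 16523 genes and edgeR 91, with 0 members among them. The smallest member adjusted p was 0.0590 with limma and 0.0645 with edgeR, both for TK1. With that block 1021 genes had an unadjusted p under 0.05 with limma, 6 members among them. With edgeR there were 922 such genes, 7 members among them. With 1 library left out, the median of the members ran from -1.13 to 0.88, TK1 from -1.26 to 0.53, POLD1 from -1.17 to 0.63, CDT1 from -1.35 to 0.83, MCM2 from -0.94 to 0.52, GINS3 from -0.38 to 0.18 and CCNE1 from -0.086 to 0.27, because the groups then held unequal numbers. With same-version transcripts only, CCNE1 was at -0.051, CDT1 at -2.71, MCM2 at -0.40 and TK1 at -0.55. With all transcripts CDT1 was at -0.26, MCM2 at -0.21 and TK1 at -0.37. Each of these same-version values leaves out the gene's leading transcript. CDT1-201 held 95.0% to 100% of the CDT1 value, so the -2.71 rests on minor transcripts, with CDT1-202 at 22.5 in mimic 1 and 0 in mimic 2. With the highest transcript only, GINS3 was at 0.045 and POLD1 at 0.033.

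In the comparison of numbers, 41 members were called under most alternatives, 42 with equal totals, 39 with the highest transcript only and 39 to 41 with 1 library left out. With same-version transcripts only, 27 of 40 members were called, with a median of -1.58, and 3960 genes in all, a sum over fewer transcripts and genes. With the highest transcript only the median was -1.99, and UNG (0.78), CCNE1 (0.15) and ORC6 (0.043) turned to the higher side. With 1 library left out the median ran from -2.004 to -1.76 and the genes called in all from 5360 (without mimic 2) to 8142, against 8298. What depth adds to the error was not tested.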

Other observations

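Histone genes of the replication-dependent clusters, whose products package new DNA, were read by name. Of the 35 tested (chosen after values were seen), 16 were higher in number 2 and 1 was lower (limma), against 26.0% and 24.2% of all genes, with a median log2 difference of 0.91. HIST1H2AC had 1144 in mimic 2 and 1220 in control 2, against 234 in mimic 1 and 237 in control 1 (log2 difference 2.32, limma adjusted p = 6.45e-07). The lower call was HIST2H2AA3, listed at 0 in mimic 2 and control 2, whose reads can be split with its near-identical copy HIST2H2AA4. Most histone mRNAs of these clusters lack a poly(A) tail, and these libraries were poly(A)-selected. SLBP, which processes them, was lower in number 2 by 0.77 on the log2 scale. Mitochondrially encoded RNA, read as a sign of RNA quality, held 4.43% of the values in mimic 2 and 4.54% in control 2, against 4.50% in mimic 1 and 4.97% in control 1. What the number stands for was not tested.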
